A study of Rattus norvegicus with 6 samples.

Results

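Bile acid synthesis and conjugation were followed through 10 genes in the livers of 6 male Sprague-Dawley rats. The genes were taken by name from the pathway, but with earlier results of these data known. All non-control array probes whose RefSeq accession belongs to them were used. This gave 15 probes for the 10 genes, out of 15284 genes that could be named on the array, and all 15 probes were well above background on all 6 arrays. Baat, Acox2 and Cyp8b1 were among the 6 genes with 1 probe each. A group of 3 rats received vehicle and a group of 3 received ADBAQ, 1-amino-2,4-dibromoanthraquinone, an anthraquinone dye intermediate, at 1000 mg/kg/day. The rats of both groups, Crl:CD(SD), were 5 weeks old when bought, and the labels name no genetic change and no further agent in either group. The labels contradict each other: the vehicle is given both as purified water and as corn oil, and the livers are said to be measured at 28 days but the dosing to last 9 weeks.

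Bile acids are made from cholesterol in hepatocytes. In the classic route Cyp7a1 hydroxylates cholesterol itself, and in the acidic route Cyp27a1 first oxidises the side chain, after which Cyp7b1 acts on the ring. Both routes then share ring steps, a shortening of the side chain in peroxisomes, and the joining of the finished acid to taurine or glycine, for which it is first activated to its CoA ester. Returning bile acids lower their own synthesis through the receptor FXR (Nr1h4), its target SHP (Nr0b2), and the receptor Fgfr4 on hepatocytes.

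Gene levels are given as log2 of the processed array signal minus the array's 75th percentile, so that 0 is the level of that percentile, and differences are ADBAQ minus vehicle on the same log2 scale, from limma with Benjamini-Hochberg adjustment over all probes kept and a threshold of 0.05. SEs are limma's moderated ones, and n was 3 rats per group throughout. Levels of different probes are not comparable with each other. All 10 hepatocyte markers were well above background on all 6 arrays. Cyp1a1, a P450 induced by planar aromatic compounds and used as a check of the exposure labels, lay at -4.88, -7.21 and -7.27 in vehicle, where 1 of 3 arrays was well above background, and at 6.53, 5.45 and 6.29 in ADBAQ. Over all genes tested, 2308 of 11344 (20.3%) passed the threshold, 1281 lower (11.3%) and 1027 higher (9.05%). Scaling the arrays to the spike-in controls, RNA added in fixed amounts, instead of the 75th percentile moved the median of all genes to 0.72 and gave 187 lower and 8937 higher, so every direction below is relative to the bulk of the genes. All vehicle arrays lay on 1 slide with 1 scan time and all ADBAQ arrays on another slide with another scan time, so slide, scan and treatment cannot be told apart. The samples are bulk liver, in which fewer hepatocytes and less RNA per hepatocyte cannot be told apart.

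Both conjugating enzymes and 2 of 3 enzymes of side chain shortening (Acox2 and, less firmly, Scp2) fell in ADBAQ. The enzymes that open the classic and the acidic route did not pass the threshold. Of the 10 genes 5 fell and none rose by limma, against 11.3% of all genes that fell, and at an unadjusted p under 0.05 the counts were 6 and 0, against 21.1% of all genes lower and 17.2% higher. Those that fell were the CoA ligase Slc27a5 (to 0.223 of the vehicle level), the peroxisomal oxidase Acox2 (to 0.271), the conjugating acyltransferase Baat (to 0.486), the 12alpha-hydroxylase Cyp8b1 (to 0.694) and the thiolase and sterol carrier Scp2 (to 0.801). The median difference over the 10 genes was -0.42, against -0.04 over all genes tested. In 6 of the 10 genes every ADBAQ value lay below every vehicle value, which held for 25.1% of all genes, and in none did every value lie above, which held for 21.2%. The count of 5 rested on all 6 arrays. It was 3 without vehicle replicate 1 or 2 or ADBAQ replicate 1, and 2 without vehicle replicate 3 or ADBAQ replicate 2 or 3, with Slc27a5 and Baat called in each case. The count was 4, without Scp2, with quantile normalization or median centring, and 1, Baat, with replicate number as a block. With the spike-in scaling, Slc27a5 (-1.41, adjusted p = 0.0117) kept its call, Acox2 (-1.13, adjusted p = 0.0514) and Baat (-0.28, adjusted p = 0.0620) stayed below 0 without one, and Cyp8b1 (0.23) and Scp2 (0.44, adjusted p = 0.00453, called higher) turned.

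**Figure D1:**
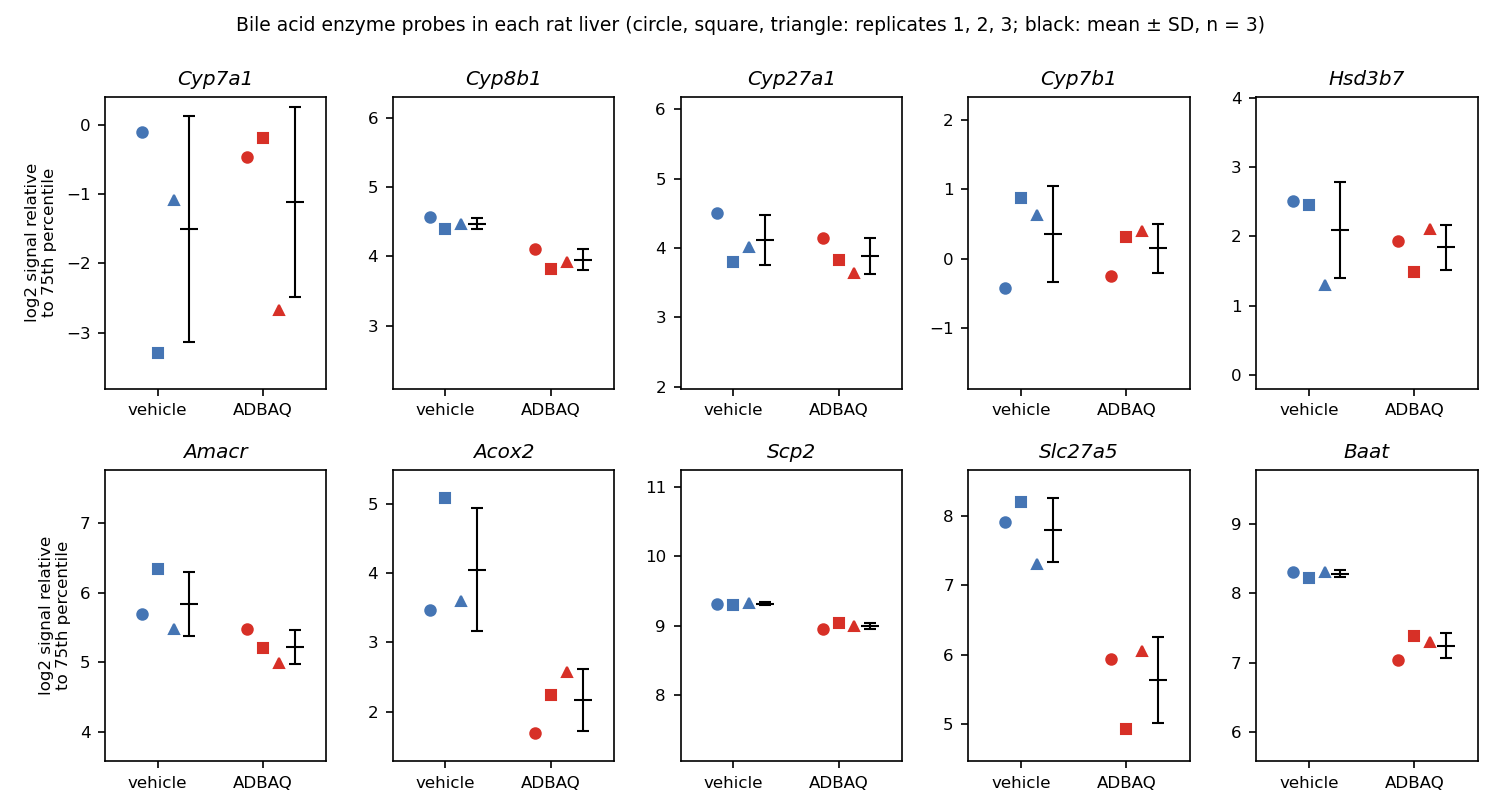
Level of each gene's brightest probe in every liver, as log2 signal minus the array's 75th percentile (vertical axes, all spanning the same number of log2 units), for vehicle (blue) and ADBAQ (red), with mean and SD over 3 rats in black. Slc27a5, Acox2, Baat, Scp2, Cyp8b1 and, narrowly, Amacr show no overlap between groups, whereas the values of Cyp7a1 run from -3.30 to -0.11 within vehicle alone.

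The sequence before the transcription start is given for 4 of the genes that fell, so that genes that fell together can be compared. RefSeq promoter windows on the build GRCr8 were found for 8 of the 10 genes. The 250 bases before the start are printed 5′ to 3′ for the conjugating enzymes, for Acox2 and for Cyp8b1, with capitals marking matches to the searched motifs.
Slc27a5 (chr1:82699336-82699585, minus strand): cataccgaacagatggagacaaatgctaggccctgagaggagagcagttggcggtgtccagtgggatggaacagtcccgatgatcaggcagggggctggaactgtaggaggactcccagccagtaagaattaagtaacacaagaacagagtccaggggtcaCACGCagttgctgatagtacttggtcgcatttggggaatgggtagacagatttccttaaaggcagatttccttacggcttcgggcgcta
Baat (chr5:68656138-68656387, minus strand): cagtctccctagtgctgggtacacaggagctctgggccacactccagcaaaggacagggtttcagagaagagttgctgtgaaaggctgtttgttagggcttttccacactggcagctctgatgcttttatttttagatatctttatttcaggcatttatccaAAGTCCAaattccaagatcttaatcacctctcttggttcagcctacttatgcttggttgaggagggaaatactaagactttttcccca
Acox2 (chr15:19090705-19090954, plus strand): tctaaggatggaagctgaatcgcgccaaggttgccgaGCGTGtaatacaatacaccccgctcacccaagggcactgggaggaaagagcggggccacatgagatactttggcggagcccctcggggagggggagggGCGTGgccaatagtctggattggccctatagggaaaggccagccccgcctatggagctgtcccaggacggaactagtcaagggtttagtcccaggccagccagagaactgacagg
Cyp8b1 (chr8:130457593-130457842, minus strand): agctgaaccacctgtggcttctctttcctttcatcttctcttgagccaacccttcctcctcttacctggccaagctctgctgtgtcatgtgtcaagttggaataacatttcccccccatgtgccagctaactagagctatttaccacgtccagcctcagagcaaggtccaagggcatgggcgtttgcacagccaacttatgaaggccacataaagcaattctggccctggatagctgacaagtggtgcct

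The motifs, searched on both strands, were AGGTCA (the half-site of many nuclear receptors), AAGTCCA (part of the site of HNF4 alpha), GTTAAT (the half-site of HNF1), GCGTG (the core bound by the aryl hydrocarbon receptor) and TATAAA. No motif here is contained in another. Slc27a5 held 1 GCGTG match, on the reverse strand 89 to 85 bases before the start, and Acox2 held 2, at 213 to 209 and 115 to 111 bases before it. Of all 33469 windows of this length, 25.9% held that motif. Baat held 1 AAGTCCA match at 88 to 82 bases before its start, a motif found in 3.26% of windows. No searched motif stood in the windows of Cyp8b1, Scp2 and Hsd3b7, which says only that these letters are not in these windows. The half-site AGGTCA, present in 14.1% of windows, was in those of Cyp27a1 (2 matches) and Amacr (1 match), neither of which passed the threshold.

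Of the steps of the pathway, conjugation had the largest mean difference. Slc27a5, the ligase that turns bile acids into their CoA esters, had levels of 7.91, 8.20 and 7.30 in vehicle and 5.94, 4.92 and 6.05 in ADBAQ. The groups were more than 1 log2 unit apart at their nearest values, and ADBAQ replicate 2 was the lowest liver. The difference was -2.17 ± 0.36 (SE, adjusted p = 0.0144), a 4.49-fold fall and the 46th largest among the 1281 genes that fell. The second probe of Slc27a5, with levels of 5.55, 5.84 and 4.91 in vehicle against 3.55, 2.53 and 3.68 in ADBAQ, gave -2.17 ± 0.37 (adjusted p = 0.0148). Both probes thus ordered the 6 livers alike, as values of the same RNA samples. The call held with each array left out, with adjusted p between 0.0284 and 0.0430 and differences between -2.42 and -1.81.

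Baat, which joins the activated acid to taurine or glycine, is downstream of Slc27a5. Its levels were 8.31, 8.22 and 8.31 in vehicle and 7.04, 7.38 and 7.29 in ADBAQ. The vehicle livers spanned 0.08 and every ADBAQ liver was lower. The difference was -1.04 ± 0.11 (adjusted p = 0.00516), a 2.06-fold fall, and it stayed called with each array left out (adjusted p 0.0162 to 0.0232). Among the 10 genes Baat had the lowest adjusted p and Slc27a5 the largest difference.

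Side chain shortening runs in peroxisomes through Amacr, Acox2, Hsd17b4 and Scp2. Acox2, the oxidase of branched-chain acyl-CoA and of bile acid intermediates, had levels of 3.47, 5.08 and 3.60 in vehicle and 1.69, 2.24 and 2.57 in ADBAQ. The groups did not overlap, and vehicle replicate 2 stood well above the other vehicle livers. The difference was -1.88 ± 0.46 (adjusted p = 0.0396), a 3.69-fold fall. Without vehicle replicate 2 it was -1.37 and still called (adjusted p = 0.0404). Leaving out vehicle replicate 3 ended the call (adjusted p = 0.0676), as did leaving out ADBAQ replicate 1 (0.117), 2 (0.0967) or 3 (0.0748).

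Amacr, the racemase that makes the side chain fit for Acox2, did not pass the threshold on any of its 3 probes. On the brightest the levels were 5.69, 6.35 and 5.48 in vehicle and 5.48, 5.20 and 4.99 in ADBAQ. Vehicle replicate 2 was again the highest liver, and the highest ADBAQ value lay just under the lowest vehicle value. The differences on the 3 probes were -0.62 ± 0.25 (adjusted p = 0.132), -0.75 ± 0.23 (adjusted p = 0.0665) and -0.82 ± 0.23 (adjusted p = 0.0537). On all 3 probes every ADBAQ liver lay below every vehicle liver, and the 95% interval on the brightest probe ran from -1.22 to -0.02.

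Scp2, whose longer product is the thiolase that cleaves off the side chain and whose shorter product carries sterols, had the smallest difference of the genes that fell. Its levels were 9.32, 9.30 and 9.33 in vehicle and 8.96, 9.04 and 8.99 in ADBAQ, the tightest groups of all 10 genes. The difference was -0.32 ± 0.08 (adjusted p = 0.0400), and its second probe gave -0.30 ± 0.08 (adjusted p = 0.0492). The fall was 1.25-fold, and only 1.1% of all genes had a smaller spread between rats. The call did not hold without any 1 of the 6 arrays (adjusted p 0.0834 to 0.121), and with quantile normalization the difference was 0.00 (adjusted p = 0.975). Median centring (-0.29, adjusted p = 0.0546) and replicate number as a block (adjusted p = 0.107) also ended the call of Scp2. Hsd17b4, the peroxisomal bifunctional protein between Acox2 and Scp2 and not one of the 10, fell by 0.37 on the log2 scale (SE 0.08, adjusted p = 0.0281), a call also lost without any 1 array (adjusted p 0.0547 to 0.0925) and with quantile normalization (-0.24, adjusted p = 0.0774). With the spike-in scaling it was called higher (0.39, adjusted p = 0.00959). Which product of Scp2 its probes read was not examined.

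**Figure D2:**
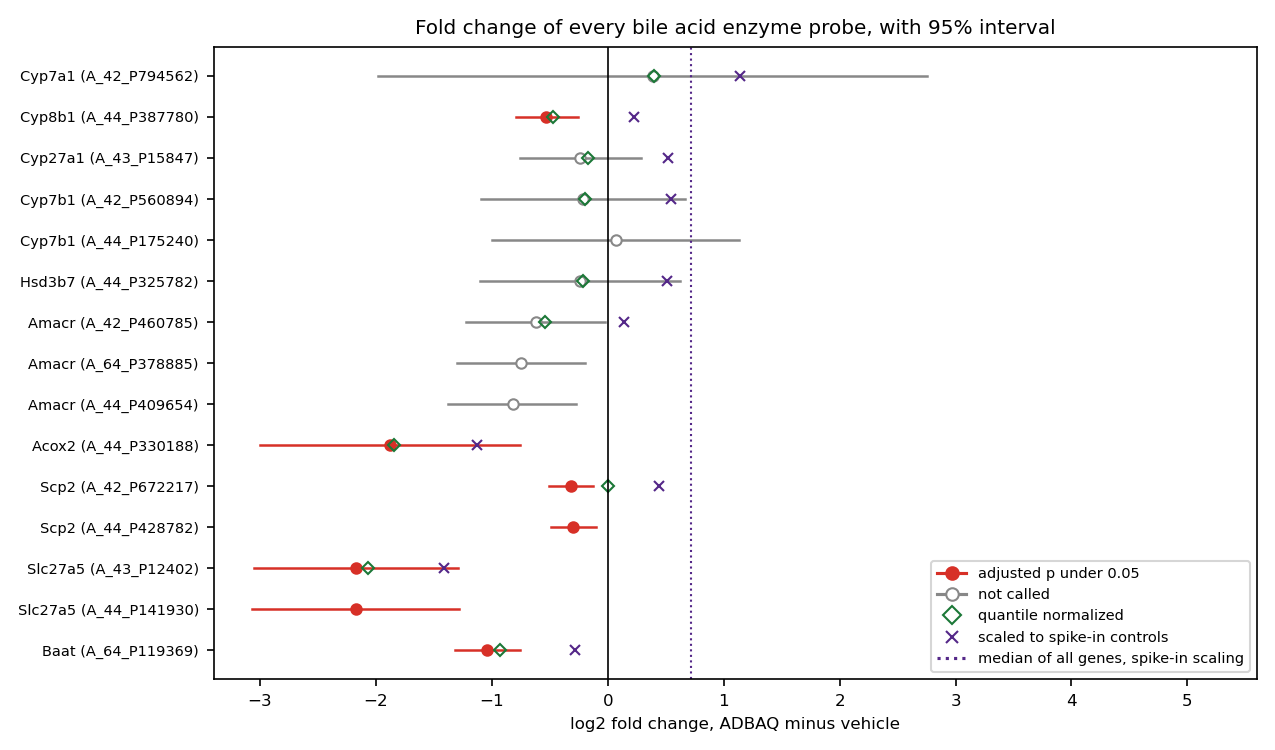
Difference between ADBAQ and vehicle for all 15 probes (horizontal axis, log2 fold change; bars, 95% interval; filled red, adjusted p under 0.05), with the value of the brightest probe after quantile normalization and after scaling to the spike-in controls. Slc27a5 at -2.17 and Acox2 at -1.88 lie furthest from 0, and Scp2 moves from -0.32 to 0.00 with quantile normalization.

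In the classic route the step that sets its rate varied more between rats than between groups. Cyp7a1, cholesterol 7alpha-hydroxylase, had levels of -0.11, -3.30 and -1.09 in vehicle and -0.46, -0.19 and -2.68 in ADBAQ. In each group 1 liver, vehicle replicate 2 and ADBAQ replicate 3, stood far below the others, and the groups overlapped. The difference was 0.39 ± 0.98 (adjusted p = 0.807), with a 95% interval from -1.98 to 2.75, which leaves room for a large change in either direction. The spread within groups was 1.5 (pooled SD) against a median of 0.16 over all genes, and 99.7% of genes had a smaller one. The sign of the difference depended on single livers: it was -0.51 without vehicle replicate 2 and -0.07 without ADBAQ replicate 2.

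Cyp8b1, which adds the 12alpha-hydroxyl group that makes cholic acid, was far more even. Its levels were 4.57, 4.40 and 4.46 in vehicle and 4.11, 3.82 and 3.92 in ADBAQ. Every ADBAQ liver was lower than every vehicle liver. The difference was -0.53 ± 0.11 (adjusted p = 0.0245), a 1.44-fold fall, with a 95% interval from -0.79 to -0.26. The call was lost without vehicle replicate 1 (adjusted p = 0.0629), 2 (0.0535) or 3 (0.0604) or ADBAQ replicate 2 (0.0738) or 3 (0.0776), with the difference between -0.61 and -0.46 throughout. Vehicle replicate 2, the lowest liver in Cyp7a1, was also the lowest vehicle liver in Cyp8b1, whereas ADBAQ replicate 3 was not the lowest of its group.

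In the acidic route neither enzyme passed the threshold. Cyp27a1, the mitochondrial sterol 27-hydroxylase, which also starts side chain oxidation in the classic route, had levels of 4.51, 3.80 and 4.02 in vehicle and 4.15, 3.83 and 3.64 in ADBAQ. The groups overlapped, with vehicle replicate 1 the highest liver and a difference of -0.24 ± 0.22 (adjusted p = 0.475). Its 95% interval, from -0.76 to 0.29, leaves out a fall as large as those estimated for Slc27a5, Acox2 and Baat. The intervals of Acox2 (-3.0 to -0.76) and Baat (-1.32 to -0.76) reached its lower end.

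Cyp7b1, the oxysterol 7alpha-hydroxylase, had 2 probes that differed in sign. The brighter one had levels of -0.42, 0.88 and 0.63 in vehicle and -0.25, 0.32 and 0.40 in ADBAQ, with a difference of -0.21 ± 0.36 (adjusted p = 0.715). The other had levels of -3.76, -2.21 and -2.27 in vehicle and -3.07, -2.48 and -2.48 in ADBAQ, with a difference of 0.07 ± 0.44 (adjusted p = 0.924). On both probes vehicle replicate 1 was the lowest liver, the same liver that had the highest Cyp7a1, Cyp8b1 and Cyp27a1 in its group. Within ADBAQ, replicate 1 was the lowest on both.

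Hsd3b7, the dehydrogenase of the ring steps that both routes share, also did not pass. Its levels were 2.51, 2.45 and 1.30 in vehicle and 1.93, 1.49 and 2.11 in ADBAQ. Vehicle replicate 3 was the lowest liver of all, and the difference was -0.24 ± 0.36 (adjusted p = 0.660).

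Set against each other, the routes did not separate. For each liver the mean difference from the vehicle mean was taken over the genes of a step, as a description and with no test, since the genes were chosen with earlier results of these data known. The classic route (Cyp7a1 and Cyp8b1) differed by -0.07 with a pooled SD of 0.78, and the acidic route (Cyp27a1 and Cyp7b1) by -0.22 with a pooled SD of 0.13. The difference between both routes changed by 0.15 with a pooled SD of 0.86, and its sign turned without vehicle replicate 2 (-0.37) or ADBAQ replicate 1 (-0.08) or 2 (-0.01). Cyp7a1 was the most variable of the 10 genes.

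Side chain shortening and conjugation stood lower, whereas the ring step Hsd3b7 (-0.24) overlapped between groups. Side chain shortening (Amacr, Acox2 and Scp2) was at -1.03, -0.91 and -0.89 in the ADBAQ livers against -0.24, 0.51 and -0.27 in vehicle. Within it Acox2 differed most (-1.88), Amacr by -0.62 without a call, and Scp2 by -0.32. Cyp8b1 of the classic route (-0.53) fell more than Scp2. Conjugation (Slc27a5 and Baat) was at -1.55, -1.89 and -1.37 against 0.07, 0.17 and -0.24. Conjugation minus the acidic route was at -1.26, -1.72 and -1.15 in ADBAQ and at 0.26, 0.07 and -0.33 in vehicle, with no overlap. Conjugation minus the classic route, at -1.88, -2.21 and -0.50 against -0.67, 1.11 and -0.43, overlapped, since vehicle replicate 1 lay below ADBAQ replicate 3. Such differences between steps do not change when an array is scaled by a constant.

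**Figure D3:**
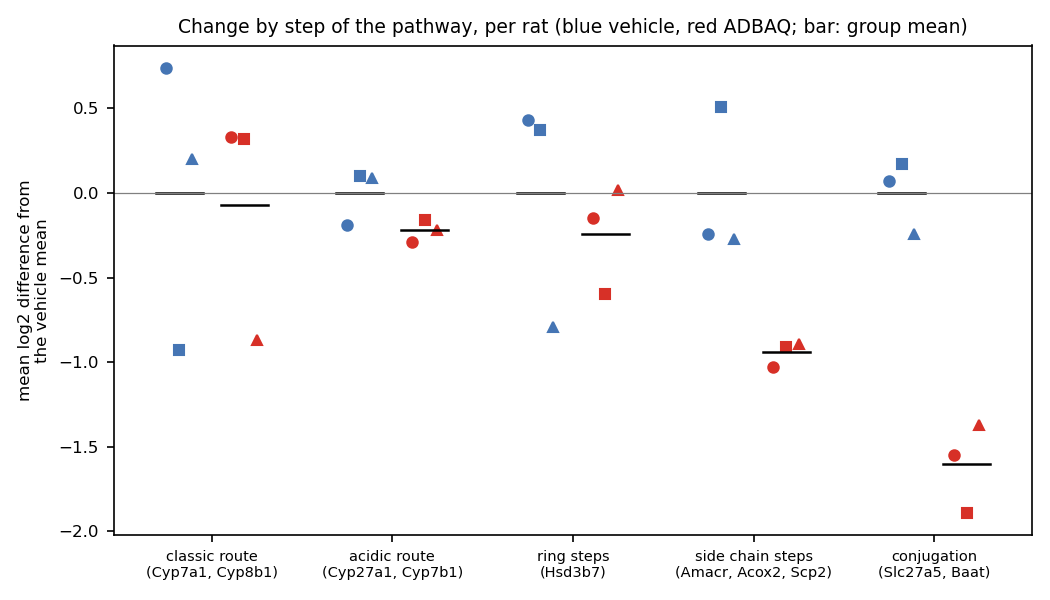
Mean log2 difference from the vehicle mean over the genes of each step (vertical axis), in each vehicle (blue) and ADBAQ (red) liver, with circles, squares and triangles for replicates 1, 2 and 3 and black bars for group means. Conjugation (mean -1.60) and side chain steps (-0.94) show separate groups, and the classic route spans -0.93 to 0.74 within vehicle.

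The remaining enzymes of bile acid metabolism were read from a list of their own. Of its 12 measured genes 3 fell and none rose (3 and 1 at an unadjusted p under 0.05), with a median of -0.22, beside 11.3% and 9.05% of all genes that fell and rose. Besides Hsd17b4 these were Slc27a2, a peroxisomal acyl-CoA ligase that also activates bile acid intermediates, which fell by 0.65 on the log2 scale (SE 0.15, adjusted p = 0.0342), and Cyp3a9, a P450 of the family that hydroxylates steroids and bile acids, with a difference of -5.34 ± 0.34 (adjusted p = 0.00140). The call of Slc27a2 held only without vehicle replicate 3, and leaving out any other array gave an adjusted p of 0.0751 to 0.1. It was 0.11 when scaled to the spike-in controls. Akr1d1, the 5beta-reductase that bends the steroid ring, had levels of 5.79, 5.09 and 4.63 in vehicle and 5.70, 5.73 and 5.78 in ADBAQ, a difference of 0.57 ± 0.28 (adjusted p = 0.195). It was called higher without vehicle replicate 1, the one vehicle liver at the ADBAQ level (0.88, adjusted p = 0.0312). Ch25h, which makes 25-hydroxycholesterol, was higher in every ADBAQ liver but did not pass (0.53 ± 0.15, adjusted p = 0.0544). Of 17 alternative settings 3 called it, among them leaving out ADBAQ replicate 2 (0.67, adjusted p = 0.0314). With normexp the difference was 0.09 (adjusted p = 0.429). Its probe was dim, at -3.38, -3.49 and -3.54 in vehicle.

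Of 18 measured genes of the regulation of bile acid synthesis 4 fell and none rose (5 and 0 at an unadjusted p under 0.05), with a median of -0.25, beside the same 11.3% and 9.05% of all genes. Fgfr4, the receptor through which an intestinal hormone represses Cyp7a1, had levels of -0.30, -0.46 and -0.30 in vehicle and -1.27, -1.29 and -1.37 in ADBAQ. The groups were clearly apart, with a difference of -0.96 ± 0.09 (adjusted p = 0.00358), and the call held with each array left out. Rxra, the partner of FXR and other nuclear receptors, fell by 0.86 on the log2 scale (SE 0.10, adjusted p = 0.00573). With the spike-in scaling neither Fgfr4 (-0.20, adjusted p = 0.117) nor Rxra (-0.11, adjusted p = 0.381) was called. Foxo1 (-0.48, adjusted p = 0.0242), a forkhead factor, kept its call when vehicle replicate 2 was left out and lost it with any other array left out (adjusted p 0.0614 to 0.0827). Nr1i2, the xenobiotic receptor PXR, lay close to the threshold (-0.41, adjusted p = 0.0498) and kept its call when vehicle replicate 1 was left out and in no other such case (adjusted p 0.0849 to 0.142). Its call was also lost with normexp (-0.24, adjusted p = 0.0745), quantile normalization (-0.32, adjusted p = 0.123), median centring (-0.38, adjusted p = 0.0609) and the authors' series table (-0.41, adjusted p = 0.0502). With the spike-in scaling Foxo1 turned to 0.28 (adjusted p = 0.0531) and Nr1i2 to 0.35 (adjusted p = 0.0197, called higher).

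Of the feedback loop, FXR and SHP did not pass, whereas Fgfr4 did. FXR (Nr1h4) was at 5.03, 5.23 and 5.95 in vehicle and at 4.36, 4.82 and 4.88 in ADBAQ, lower in every ADBAQ liver with a difference of -0.72 ± 0.27 (adjusted p = 0.112). All 3 of its probes differed in that direction without a call, and the 95% interval on the brightest ran from -1.36 to -0.07. SHP (Nr0b2) was at 6.58, 5.99 and 4.80 in vehicle and at 5.63, 5.41 and 5.42 in ADBAQ, inside the vehicle range (-0.30 ± 0.43, adjusted p = 0.650). LRH-1 (Nr5a2) differed by -0.12 ± 0.21 (adjusted p = 0.730) and HNF4 alpha (Hnf4a) by -0.30 ± 0.14 (adjusted p = 0.173).

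The other fixed lists give the surroundings of the pathway, again beside 11.3% of all genes lower and 9.05% higher. Peroxisome assembly genes, which build the organelle of the side chain steps, had 2 of 15 higher, none lower (2 and 2 at an unadjusted p under 0.05) and a median of 0.06, a share near that of all genes. Pex26, which anchors peroxisomal import ATPases, was called higher on 1 of its 2 probes (0.77, adjusted p = 0.0135). It was not called without ADBAQ replicate 1 (adjusted p = 0.0516) or from the mean of its probes (0.42, adjusted p = 0.0675). Bile acid transport genes had 3 of 12 higher and 4 lower, and of those called the furthest from 0 were the efflux pumps Abcc3 (3.95 ± 0.34), Abcc4 (1.90 ± 0.18) and Abcc2 (1.08 ± 0.16) and the uptake carrier Slco1a4 (-2.26 ± 0.24), all called with each array left out and under each scaling tried. The other genes of this list that fell, given after their values were seen, were the uptake carriers Slc10a1 (-0.77, adjusted p = 0.00951) and Slco1a1 (-0.63, adjusted p = 0.0147; not called without ADBAQ replicate 3, adjusted p = 0.0526) and the bile salt export pump Abcb11 (-0.86, adjusted p = 0.0125). None of these 3 was called with the spike-in scaling, at -0.02, 0.12 and -0.11. Cholesterol supply genes had 5 of 16 lower and 1 higher, led by Hmgcs1 (-2.02 ± 0.20), Insig1 (-1.91 ± 0.30) and Stard4 (-1.67 ± 0.09). Given again after their values were seen were Srebf2, a regulator of sterol genes (-0.91, adjusted p = 0.0115; -0.16 and not called with the spike-in scaling), and the sterol esterifying enzyme Soat2 (0.75, adjusted p = 0.0446; lost without any 1 array other than vehicle replicate 1, adjusted p 0.0510 to 0.123).

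**Figure D4:**
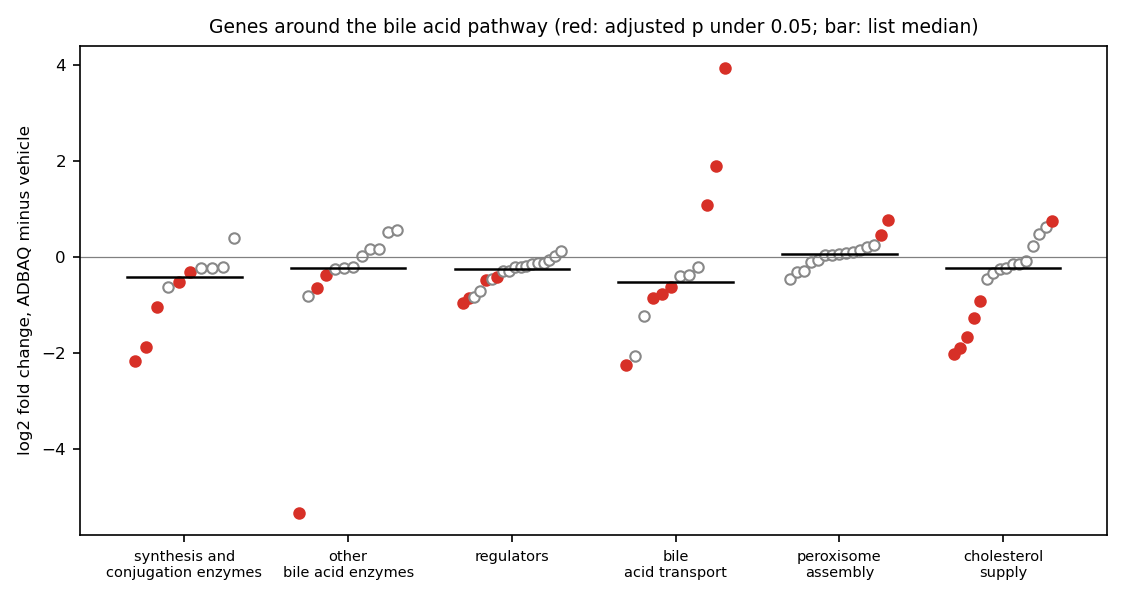
Log2 fold change, ADBAQ minus vehicle (vertical axis), of every measured gene in 6 fixed lists, each point a gene, filled red where the adjusted p was under 0.05, with the list median as a bar. The synthesis and conjugation enzymes have 5 genes below 0 that passed and none above, and bile acid transport has both, from -2.26 to 3.95.

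Hepatocyte markers also stood lower in ADBAQ when scaled to the 75th percentile. Of 10 such markers 7 fell and none rose (9 and 0 at an unadjusted p under 0.05), with a median of -0.43, close to the -0.42 of the 10 enzymes. Their summed signal was 8490 to 9310 times the array's 75th percentile in vehicle and 6260 to 6730 times in ADBAQ. With quantile normalization 2 markers fell and their median was -0.08, against -0.34 for the enzymes. With the spike-in scaling it was 0.32, against 0.33. These 2 stay close by construction, since that scaling adds 0.75 to 0.76 to every gene's difference. The part of the markers in the falls of the enzymes was not tested. The markers differed by -1.07 (the fibrinogen chain Fga) to -0.24, and the lowest after Fga was Apob (-0.67). Cyp8b1 (-0.53) and Scp2 (-0.32) lay inside that range, and Slc27a5 (-2.17) and Acox2 (-1.88) below it. Baat (-1.04) lay inside it only through Fga, and below Apob. With quantile normalization Baat (-0.93) lay below Fga (-0.85) too.

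Markers of other liver cells were read in the same way. Of 8 cholangiocyte markers, Epcam (0.82), Cftr (0.83) and Prom1 (0.94) rose and Krt7 (-0.61, but 0.14 with the spike-in scaling) fell, and each of these calls was lost without at least 1 single array. Cftr was also not called with normexp (0.14, adjusted p = 0.244), nor Prom1 from the mean of its probes (0.77, adjusted p = 0.113). The list median was 0.72, the highest of all lists, with 5 higher and 1 lower at an unadjusted p under 0.05. The summed signal, 13.4 to 14.6 in vehicle and 13.1 to 14.4 in ADBAQ, overlapped, but 76.8% of it was the probe of Slc4a2 (-0.23 ± 0.10, adjusted p = 0.145). Without that gene the sum was 2.44 to 2.64 in vehicle and 3.37 to 4.91 in ADBAQ, with no overlap. The part of these cells in the results was not tested. None of the markers of macrophages (9 genes, median 0.04), endothelium (4, median -0.22) and stellate cells and fibroblasts (8, median -0.24) passed by limma, with 0, 2 and 2 of them lower and 0 higher at an unadjusted p under 0.05. A sum weighs each gene by its probe's brightness. Summed signals were 112 to 139 and 120 to 136 for macrophages, 37.2 to 41.1 and 30.5 to 34.8 for endothelium, and 32.0 to 43.3 and 31.1 to 33.9 for stellate cells, in vehicle and ADBAQ. All of these markers were well above background on all 6 arrays. Of the endothelial sum 83.9% was the probe of Kdr (-0.28, adjusted p = 0.0842 by limma). Without Kdr that sum overlapped, at 5.63 to 6.81 in vehicle and 4.91 to 5.98 in ADBAQ.

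**Figure D5:**
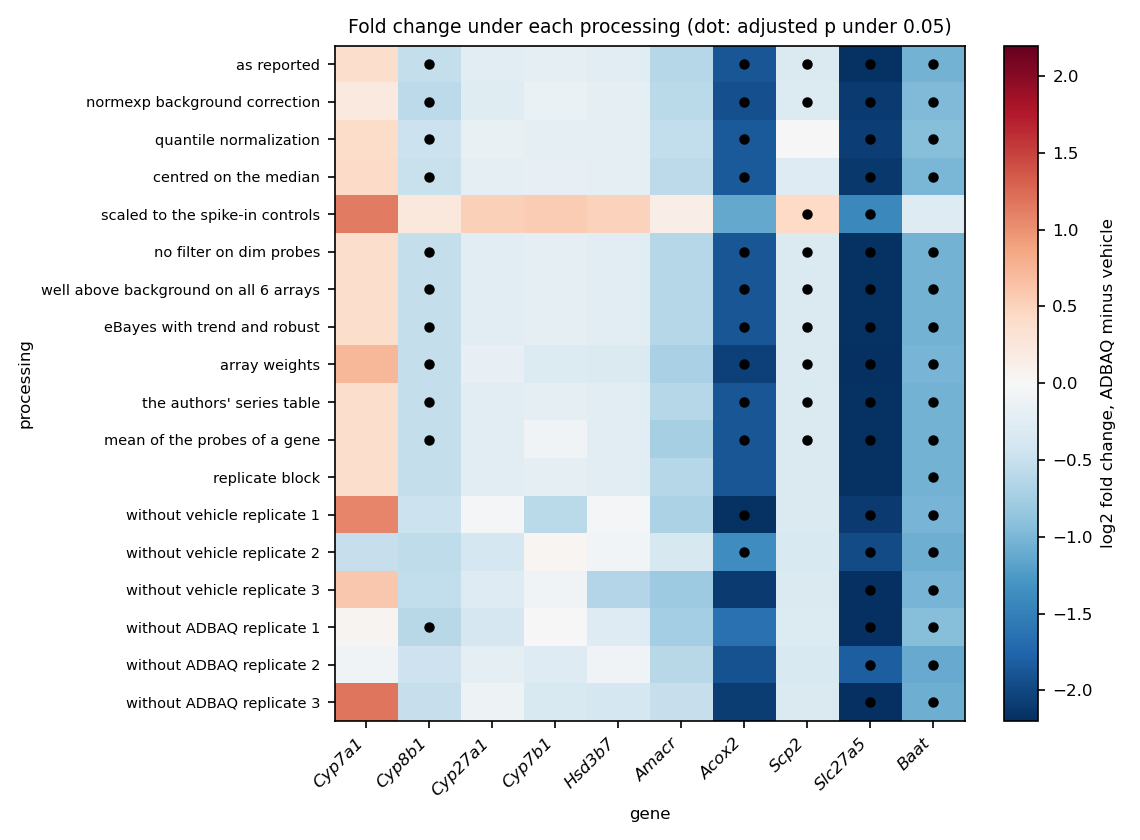
Log2 fold change of the 10 genes (columns) under each processing or with 1 array left out (lines), as colour, with a dot where the adjusted p was under 0.05. Slc27a5 keeps its dot in all lines except the replicate block, where its adjusted p was 0.0563, and Baat in all except the spike-in scaling, where it was 0.0620.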

How the data were processed

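RNA from 6 rat livers was hybridised to 1-colour Agilent arrays, 1 array per rat, with separate animals as replicates. Per the file headers, the deposited intensities come from version 10.7.1.1 of Agilent Feature Extraction (10.7 per the submitters' processing notes) on a design built on rn4, and the processed signal had its background removed but was not normalized between arrays. The authors' deposited series table holds the ratio of that signal to the array's 75th percentile, as set against the scanner values, which settled its scale and direction. The medians of its vehicle columns were 0.0967, 0.0970 and 0.0983, those of its ADBAQ columns 0.0930, 0.0971 and 0.0952. Other deposited columns, per the file headers, are flags for spots well above background, saturated or outlying.

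Control spots (1319) and outlier spots (at most 2 per array) were left out, leaving 61657 probes, of which 62.1% to 65.3% were well above background per array and none was saturated. The number of arrays limits the precision. The log2 processed signal minus its 75th percentile was tested with limma 3.58.1 (lmFit and eBayes) in R 4.3.3, with Benjamini-Hochberg adjustment over the 38695 probes that the 3 arrays of 1 or both groups marked as well above background. A gene was read from its kept probe of highest mean signal. RefSeq accessions named 27460 probes (15284 genes), and 34197 stayed unnamed. The code was checked on simulated data.

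All 10 enzymes, any measured gene of the lists of other bile acid enzymes and regulators, and up to 4 called genes of largest absolute change from each of bile acid transport, peroxisome assembly and cholesterol supply were to be named, with exceptions stated. Members and lists were chosen with earlier results of these data known. Alternatives were normexp (offset 50, on median spot signals), quantile, median and spike-in scaling (8 probes), other filters, trend and robust eBayes, array weights, the series table, probe means, a replicate block and each array left out. A slide block could not be made, since each slide held 1 group. Promoter windows came from RefSeq (GRCr8), and array probes were not placed on that build. Some genes of the lists are counted but not reported by name here.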

Additional observations from a re-analysis of the deposited data

How the results depend on the processing

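With the spike-in scaling 2 of the 10 enzymes were called (Slc27a5 lower, Scp2 higher), their median was 0.33, 9124 genes were called in all and 52 in the other pathway lists, against 22 as reported. Under it Cyp8b1 (0.23), Cyp27a1 (0.52), Cyp7b1 (0.55), Hsd3b7 (0.51), Amacr (0.14), Scp2 (0.44), Hsd17b4 (0.39), Slc27a2 (0.11), Nr1h4 (0.04), Nr0b2 (0.46), Foxo1 (0.28), Nr1i2 (0.35), Nr5a2 (0.64), Hnf4a (0.46), Slco1a1 (0.12) and Krt7 (0.14) turned sign, by construction, since this scaling adds 0.75 to 0.76 to every gene's difference, and with quantile normalization Scp2 did (0.00). Genes called numbered 4052 with normexp (1393 higher, 2659 lower), 3530 with no filter on dim probes, more of which were then tested, and 901 to 1543 with 1 array left out, fewer samples in each case. Leaving out 1 array gave 2 to 3 enzymes called and a median of -0.59 to -0.40. Over these, Cyp7a1 ran from -0.51 (vehicle replicate 2 left out) to 1.17 (negative also at -0.07 with ADBAQ replicate 2 left out), Cyp7b1 from -0.60 to 0.05 (vehicle replicate 2), Nr0b2 from -0.80 to 0.09 and Nr5a2 from -0.29 to 0.10 (both vehicle replicate 1). For the turns of sign other than under the spike-in scaling the cause was not tested. The replicate block gave 982 genes and 1 of the 10 enzymes called, Baat (adjusted p = 0.0342), with Slc27a5 at 0.0563. Same-numbered arrays of the groups correlated at -0.029, -0.020 and -0.005 in their deviations. Differently numbered arrays correlated at -0.045 to 0.064. Whether same-numbered rats were handled together cannot be told from these values.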
